A study of Mus musculus with 25 samples.

Results

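The levels of 10 genes that encode the melanosome's pigment machinery were followed across 25 mouse melanomas: Pmel, Mlana and Gpr143 (proteins of the melanosome's structure and membrane), Tyr, Tyrp1 and Dct (the pigment enzymes), and Slc45a2, Slc24a5, Oca2 and Trpm1 (transporters and channels of pigment cells). Their rows were found by gene symbol and are 10 of the 55450 genes in the count table. Each symbol matched 1 gene, and all 10 passed the filter on low counts. In the 5 tumours of mice given the isotype antibody the 10 genes together took 1.13% to 1.87% of all counts, and in the 6 stable and 8 responding tumours under anti-CTLA-4 they took at most 0.0464%. The 6 non-responding tumours spanned nearly the whole distance between, from 0.0427% to 1.46%.

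The tumours grew from B2905, also called M4, a mouse melanoma cell line, after implantation into 40 C57BL/6 mice. At an average tumour size of 75 mm3 the mice were randomised to anti-CTLA-4 (30 mice), an antibody that blocks an inhibitory receptor of T cells, to isotype control antibody IgG2b (5 mice) or to no treatment (5 mice, not analysed here). Antibody was dosed at 10 mg/kg, with 2 doses a week for 2 weeks. Tumours were classed 10 to 11 days after the last dose. From the 30 mice given anti-CTLA-4, 20 tumours were sequenced, so the outcome groups are not the whole treated arm. The 4 groups were control (IgG2b, n = 5), non-responder (anti-CTLA-4, tumour kept growing, n = 6), stable (anti-CTLA-4, size unchanged, n = 6) and responder (anti-CTLA-4, tumour shrank, n = 8). The age and sex of the mice were not given in the sources used here. All tumours came from 1 transplanted line, so the groups vary in host, treatment and outcome but not in the line's origin, and the outcome groups were defined by growth after treatment rather than by randomisation.

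Melanosomes are lysosome-related organelles in which melanocytes make and store melanin. Fibrils built from PMEL form the scaffold on which pigment is laid down. Tyrosinase (TYR) carries out the rate-limiting oxidation of tyrosine, and DCT and TYRP1 act on later intermediates of eumelanin synthesis. SLC45A2 and OCA2 help set the pH that tyrosinase needs, and SLC24A5 is a cation exchanger of the pigment cell. Loss of TYR, OCA2, TYRP1 or SLC45A2 causes forms of oculocutaneous albinism in people, and loss of GPR143 causes ocular albinism. In melanocytes and melanoma the transcription factor MITF binds E-box motifs, among them the longer M-box, in the promoters of several of these genes, often together with SOX10. Several of the encoded proteins, among them MLANA (Melan-A/MART-1), PMEL (gp100), TYR, TYRP1 and DCT, are known T cell antigens in melanoma.

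Promoter sequence is shown for 2 of the enzyme genes that changed together, since both carry the E-box CATGTG upstream of the start site. The RefSeq promoter table on GRCm38.p6 held 7 windows for 6 of the members (Slc24a5, Tyrp1, Oca2, Trpm1, Tyr and Dct). No window was matched for Mlana, Pmel, Slc45a2 or Gpr143. The 200 bases before the Tyr start site, on the minus strand of chr7:87493513-87493712, hold the M-box core AGTCATGTG, in capitals.
Tyr: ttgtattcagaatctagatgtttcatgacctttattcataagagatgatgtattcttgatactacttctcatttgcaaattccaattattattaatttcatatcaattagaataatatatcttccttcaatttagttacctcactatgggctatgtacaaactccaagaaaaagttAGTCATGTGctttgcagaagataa
The 200 bases before the Dct start site, on the minus strand of chr14:118052247-118052446, hold CATGTG, in capitals, without the full M-box core.
Dct: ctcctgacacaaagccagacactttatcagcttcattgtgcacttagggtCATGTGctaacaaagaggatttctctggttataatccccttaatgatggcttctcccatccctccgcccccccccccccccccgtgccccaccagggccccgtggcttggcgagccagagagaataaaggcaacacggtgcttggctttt

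To compare the surroundings of the motif, 30 bases are given for 4 members, each read on the strand that shows CATGTG (capitals), with the motif's distance from the RefSeq start site.
Tyr: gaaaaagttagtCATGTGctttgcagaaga
Tyrp1: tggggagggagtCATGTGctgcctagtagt
Dct: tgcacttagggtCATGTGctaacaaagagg
Trpm1: ccaaatcctcatCATGTGcccaccccaaac
The motif begins at -21 for Tyr (chr7:87493516-87493545, minus strand), at -46 for Tyrp1 (chr4:80834155-80834184, plus strand), at -150 for Dct (chr14:118052379-118052408, minus strand) and at -141 for Trpm1 (chr7:64153682-64153711, plus strand). Around the motif Tyrp1 shared an unbroken run of 11 bases with Tyr, Dct a run of 10 and Trpm1 a run of 8. The sites not printed that had 30 bases in their window shared shorter runs. These were 7 bases for Slc24a5 (at -13), 7 for Dct at -232 and 6, the motif alone, for Oca2 (at -186). The full core AGTCATGTG was found only for Tyr (at -24) and Tyrp1 (at -49) among the 7 windows, against 0.274% of 32851 windows of 300 bases. All 7 windows held CATGTG or CACGTG on either strand, against 20.4% of all windows (CATGTG in 14.2%, CACGTG in 7.15%; AGTCATGTG contains CATGTG). A match describes the letters of the window, and binding was not measured.

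Each tumour had 8.76 M to 34.3 M counts in total. The share of counts on protein-coding genes was 82.9% to 89.2% in control, non-responder and stable tumours but 23.8% to 87.0% in responders (median 68.8%), and 7 of the 8 responders were under 80%. Library numbers ran by group, so that library order and group cannot be told apart. No pair of replicates agreed within sampling noise. The labels give each tumour an id of its own but do not say more of its animal, so p-values describe only the spread between these tumours. In whole tumour pieces, fewer pigment cells and less RNA per pigment cell cannot be told apart. Sox10, which marks the melanocyte and Schwann lineages, was present in every tumour, at 121 to 391 CPM (counts-per-million, scaled to each library).

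Compared per length, as RPKM (reads scaled to gene length and library size, the authors' values), Dct was the most abundant of the members in control tumours, at 1967 ± 380 RPKM (SD, n = 5). Tyrp1 (725 ± 170) and Pmel (689 ± 156) followed, with ranges that overlapped between tumours. Mlana stood at 273 ± 58.9, Tyr at 132 ± 19.5, Slc45a2 at 89.7 ± 26.3 and Slc24a5 at 65.0 ± 20.5 RPKM. The last pair overlapped between tumours, but within each of the 5 controls Slc45a2 was the higher (ratio of Slc24a5 to Slc45a2 0.561 to 0.955). Trpm1 was at 40.3 ± 14.7, Oca2 at 25.7 ± 9.13 and Gpr143, lowest of the 10, at 8.80 ± 2.44 RPKM. In stable tumours the order was different: Tyrp1 led with a mean of 20.7 RPKM (SD 12.8, n = 6), and Slc24a5 (7.03 ± 1.46), Dct (6.02 ± 4.28), Pmel (4.86 ± 2.19) and Mlana (4.57 ± 2.85) overlapped one another. The Slc24a5 RPKM of stable tumours was 1.45 to 2.16 times the value its counts imply, so its place in that order is not firm. In responders Tyrp1 (18.3 ± 14.9, n = 8) and Dct (17.1 ± 21.3) were level at the top, and Gpr143 was again lowest, at 0.0949 RPKM.

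**Figure D1:**
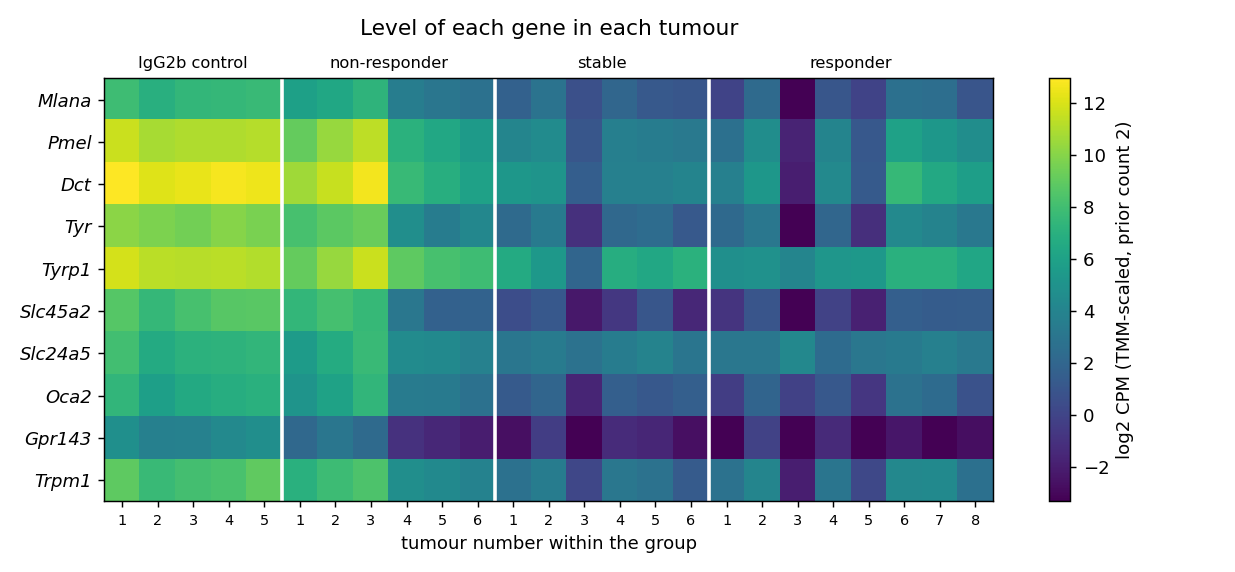
Level of the 10 genes (rows) in each of the 25 tumours (columns, ordered by group), as log2 CPM with a prior count of 2. Controls and non-responders 1, 2 and 3 hold the highest values of all 10 genes, and the lowest tumour is responder 3 for 6 genes.

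Pmel (ENSMUSG00000025359.10, chr10:128704195-128720238 on GRCm38, plus strand) encodes the fibril protein. The 5 controls held 3182, 1798, 2013, 2050 and 2220 CPM. The 6 non-responders held 544, 1398, 2528, 131, 87.3 and 47.5 CPM, so that 1 of them was above 4 controls and another was below the highest responder. Stable tumours ran from 1.95 (median 12.3) to 23.3 CPM, below every non-responder, and responders from 0.215 (median 20.5) to 62.7 CPM. Its exons overlap those of Dgka by 105 bases and of Cdk2 by 34 bases on the other strand, and in responder 3, with 4 Pmel counts, the authors' RPKM (1.67) was 25.6 times the value its counts imply. The same gap was over 2-fold in responder 5 (3.08 times) and stable 3 (2.35 times), so RPKM overstated Pmel relative to its counts in the lowest tumours.

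Mlana (ENSMUSG00000024806.4, chr19:29697824-29708634, plus strand) encodes Melan-A, a melanosome membrane protein that interacts with PMEL. Controls held 241, 123, 176, 183 and 212 CPM, and non-responders 61.2, 82.2, 154, 12.1, 8.40 and 6.73 CPM. Stable tumours (1.45 to 7.31 CPM, median 2.71) reached past the lowest non-responder, and responders (0 to 6.42 CPM, median 1.93) lay below every non-responder. Responder 3 had 0 Mlana counts, and a limit of 3 counts there is 0.161 CPM (counting error only).

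Gpr143 (ENSMUSG00000025333.10, chrX:152781921-152808646, plus strand), a receptor of the melanosome membrane, was the member with the fewest counts. Controls held 27.2, 13.7, 14.3, 20.1 and 26.8 CPM, against 4.38, 8.29, 4.90, 0.40, 0.25 and 0.15 CPM in non-responders. Every non-responder was therefore below every control. Stable tumours held 0 to 14 counts each (at most 0.682 CPM) and responders 0 to 12 (at most 0.831 CPM). Responder 2 carried the 12 counts and stable 2 the 14, while 4 responders and 1 stable tumour had 0. Values of this gene in both groups are therefore close to what 3 counts allow, and the fitted fold depends on single libraries: the log2 difference between responders and non-responders was -4.24, but -5.90 without responder 2 and -3.62 without non-responder 2.

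**Figure D2:**
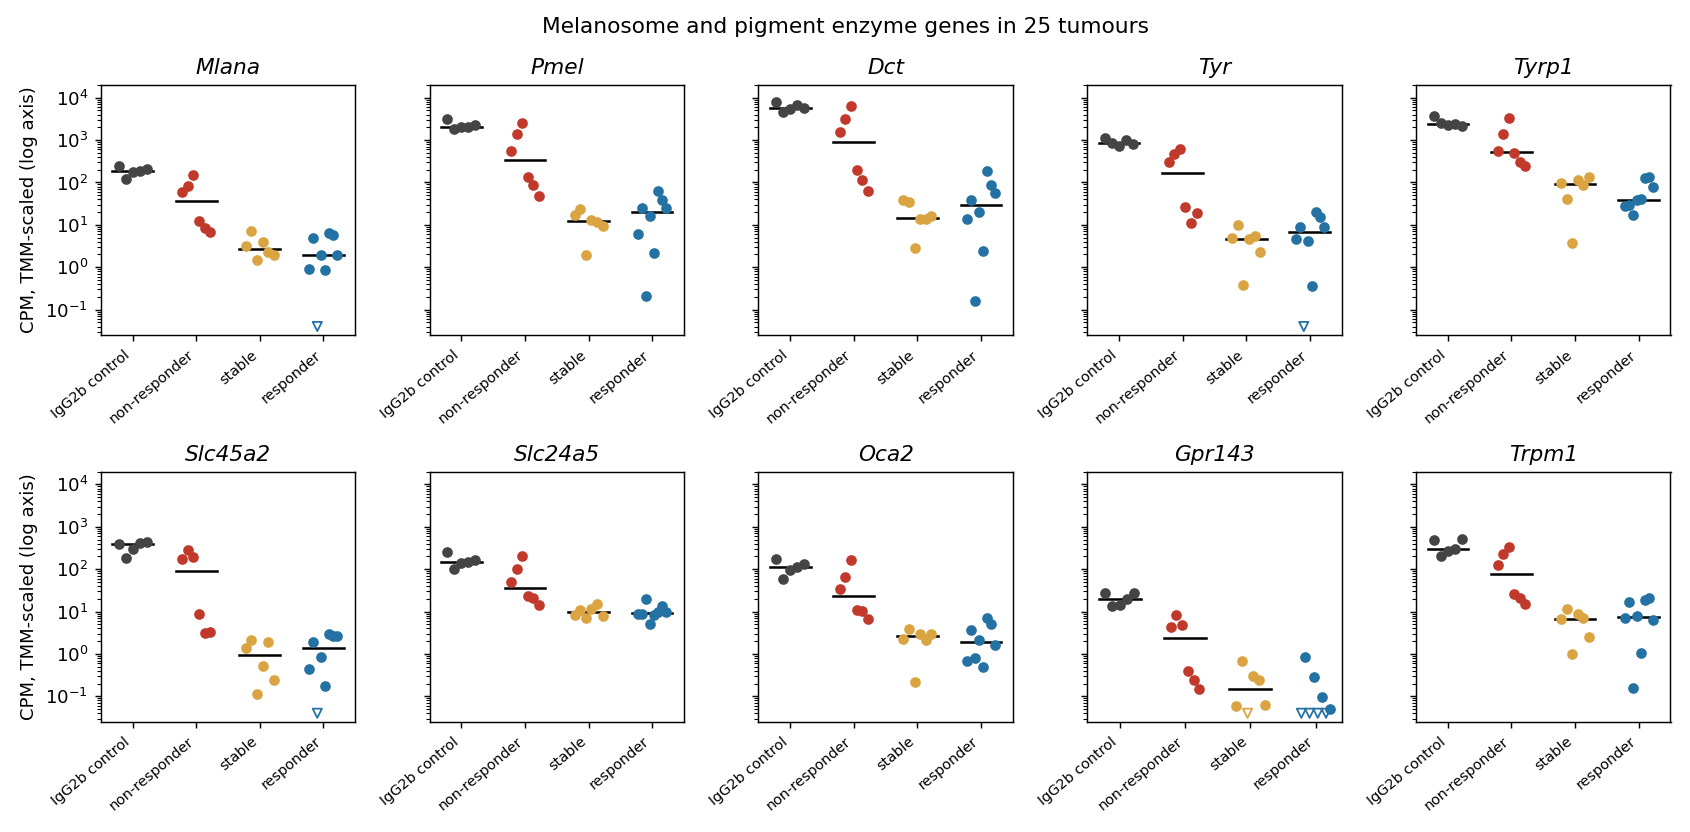
CPM of each gene by group, 1 point per tumour on a log axis, with the group median as a bar and tumours with 0 counts as open triangles at the lower edge (the Gpr143 responder median, 0.0250 CPM, falls at that edge and is not seen). Control tumours sit together for every gene, while the 6 non-responders spread over at least 13.5-fold (Tyrp1) and up to 104-fold (Dct). Among genes with over 3 counts in each tumour of the group, stable tumours spread by up to 35.2-fold (Tyrp1) and responders by up to 292-fold (Pmel).

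Tyr (ENSMUSG00000004651.6, chr7:87424771-87493512, minus strand), the rate-limiting enzyme, varied least among the controls, at 1108, 843, 723, 1018 and 831 CPM. The non-responders held 302, 462, 612, 26.7, 11.4 and 18.8 CPM, all below the controls. Stable tumours held 0.390 to 10.1 CPM (median 4.68), all below the lowest non-responder, and responders 0 to 19.8 CPM (median 6.74), where the highest tumour passed 2 of the non-responders.

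Dct (ENSMUSG00000022129.4, chr14:118012790-118052244, minus strand) had the widest range of the enzymes. It stood at 7872, 4529, 5519, 6845 and 5867 CPM in controls and at 1570, 3064, 6513, 199.6, 117 and 62.5 CPM in non-responders. Non-responder 3 was thus within the controls, and non-responders 5 and 6 were below the highest responder. Stable tumours held 2.84 to 38.7 CPM (median 14.8) and responders 0.161 to 189 CPM (median 29.3). The lowest and highest responders were responder 3, with 3 counts, and responder 6, with 2003 counts.

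Tyrp1 (ENSMUSG00000005994.14, chr4:80834123-80851719, plus strand) kept the most signal of the enzymes in the stable and responding tumours. Controls held 3795, 2466, 2310, 2403 and 2168 CPM and non-responders 545, 1374, 3253, 490, 298 and 240 CPM. Stable tumours held 3.79 to 133 CPM (median 92.5) and responders 17.2 to 131 CPM (median 39.1), and no tumour of either group reached the lowest non-responder. Responder 3, which had no Tyr counts and 3 Dct counts, had 320 Tyrp1 counts.

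Slc45a2 (ENSMUSG00000022243.10, chr15:11000721-11029233, plus strand) held 402, 180, 297, 415 and 435 CPM in controls and 177, 282, 194, 8.58, 3.16 and 3.32 CPM in non-responders. The step between non-responder 1 and non-responder 4, 20.6-fold, was the widest gap at that place in the order among the 10 genes. Stable tumours (0.111 to 2.14 CPM) and responders (0 to 2.93 CPM) were all below every non-responder.

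Oca2 (ENSMUSG00000030450.11, chr7:56239760-56536518, plus strand) held 171, 58.4, 93.9, 113 and 131 CPM in controls and 35.0, 66.6, 164, 10.7, 10.4 and 6.61 CPM in non-responders. It held 0.223 to 3.85 CPM (median 2.60) in stable tumours and 0.494 to 6.89 CPM (median 1.87) in responders. The highest responder was above the lowest non-responder, and the stable tumours were below all of them.

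Slc24a5 (ENSMUSG00000035183.14, chr2:125068124-125088677, plus strand) did not fall below 5.03 CPM in any tumour. Controls held 255, 100, 139, 145 and 167 CPM, non-responders 49.6, 103, 207, 22.7, 21.1 and 14.1 CPM, stable tumours 7.02 to 15.4 CPM (median 9.66) and responders 5.03 to 19.7 CPM (median 9.14). Both of the low groups overlapped the lowest non-responder. Its exons overlap those of Myef2, a widely expressed gene on the other strand, by 921 bases, and its deposited counts were not whole numbers in 14 tumours. Myef2 was at 30.1 to 53.7 CPM in responders and 24.7 to 42.6 CPM in stable tumours. The strand setting of the counting is not given in the sources used here, so reads of Slc24a5 and Myef2 in the shared exon cannot be told apart at these low levels.

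Trpm1 (ENSMUSG00000030523.18, chr7:64153835-64269775, plus strand), a cation channel of melanocytes and retinal bipolar cells, held 485, 205, 275, 305 and 511 CPM in controls and 126, 225, 339, 26.3, 20.8 and 14.7 CPM in non-responders. Stable tumours held 1.00 to 11.3 CPM (median 6.72), below every non-responder, and responders 0.161 to 21.4 CPM (median 7.37).

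Responders and non-responders differ in outcome under the same antibody. All 10 genes were lower in responders (edgeR's quasi-likelihood test with Benjamini-Hochberg adjustment, adjusted p under 0.05), where 23.8% of the 18031 genes tested were called lower. The median log2 difference over the 10 was -4.25, against 0.05 over all genes tested. Slc45a2 was furthest apart, at -6.25 on the log2 scale (SE 0.97, adjusted p = 8.68e-05), or 75.9-fold lower. The enzymes were lower by 37.5-fold (Dct, log2 -5.23, SE 1.07), 30.8-fold (Tyr, -4.95, SE 0.93) and 16.7-fold (Tyrp1, -4.06, SE 0.65). Pmel was at -5.15 (SE 0.91), Mlana at -4.26 (SE 0.72), Oca2 at -4.20 (SE 0.70) and Trpm1 at -3.66 (SE 0.77). Slc24a5 had the smallest difference, -2.72 (SE 0.45, adjusted p = 0.000131). Its reads cannot be told apart from those of Myef2 in the shared exon, so the size and rank of its differences, here and below, are not firm. The adjusted p-values of the 10 ran from 8.68e-05 to 0.00109. For Mlana, Tyrp1 and Slc45a2 every responder was below every non-responder, a pattern that 2.94% of genes tested showed.

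That count moved with the protein-coding share of the libraries, which was low in 7 of the 8 responders. With the share as a covariate 4 of the 10 (Pmel, Tyr, Tyrp1 and Slc24a5) were called, and with its log odds none, at log2 differences of -5.89 to -2.26 and adjusted p of 0.0594 to 0.418. Among all 18031 genes tested, the fit with the share called 916 higher and 894 lower, and that with its log odds 247 and 289. The part of library make-up in the result was not tested beyond these fits. Fold sizes also depended on the scale. By limma on log2 RPKM with 1 RPKM added, all 10 were called at differences of -4.47 to -0.89. With 0.1 RPKM added, all 10 were called at -5.05 to -1.48. Leaving out any single tumour in the edgeR fit kept all 10 calls. Without non-responder 3 the difference of Mlana was -3.59, of Pmel -4.32, of Dct -4.29, of Tyrp1 -3.25, of Slc24a5 -1.997, of Oca2 -3.28 and of Trpm1 -3.05, each smaller by over 1.5-fold, and without responder 6 that of Dct was -5.92.

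Stable tumours set against the same 6 non-responders were lower for all 10 genes as well, where 7.86% of genes tested were called lower. The median log2 difference was -4.34, against -0.02 over all genes. The values were -6.70 for Slc45a2 (SE 1.11, adjusted p = 0.00172), -6.59 for Dct (SE 1.29), -5.96 for Pmel (SE 1.07), -5.69 for Tyr (SE 1.09), -4.35 for Oca2 (SE 0.78) and -4.34 for Trpm1 (SE 0.89). Smaller differences were found for Mlana (-4.00, SE 0.78), Tyrp1 (-3.70, SE 0.72), Gpr143 (-3.67, SE 0.94, adjusted p = 0.0121) and Slc24a5 (-2.77, SE 0.50). For 7 of the 10, all but Mlana, Slc24a5 and Gpr143, every stable tumour was below every non-responder, against 2.94% of genes tested. Protein-coding shares of these 2 groups overlapped (83.8% to 89.2% and 82.9% to 88.4%). Leaving out any single tumour kept all 10 calls but moved 8 values by over 1.5-fold. Without non-responder 3 the difference was -3.33 for Mlana, -5.12 for Pmel, -5.65 for Dct, -2.89 for Tyrp1, -2.05 for Slc24a5, -3.43 for Oca2 and -3.73 for Trpm1. That of Gpr143 was -4.37 without stable 2 and -3.05 without non-responder 2. When the test asked for a difference beyond 2-fold, 5 of the 10 passed, where 24 of the 18031 genes tested were called lower.

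Between responders and stable tumours none of the 10 genes was called by edgeR, DESeq2 or limma, and none had an unadjusted p under 0.05 in edgeR's test, where 38.2% of genes tested were called in either direction. That percentage moved with the libraries: with the protein-coding share as covariate 0 of 18031 genes were called higher and 0 lower. The intervals were wide. Dct had the largest estimate, 1.36 higher in responders on the log2 scale (95% interval -0.58 to 3.30), which was 0.66 without responder 6. Slc24a5 had the narrowest interval, 0.05 (-0.84 to 0.94). Mlana differed by -0.26 (-1.67 to 1.15), Pmel by 0.80 (-0.84 to 2.45), Tyr by 0.75 (-1.001 to 2.49), Tyrp1 by -0.36 (-1.55 to 0.83) and Slc45a2 by 0.45 (-1.56 to 2.46). Oca2 (0.15, -1.23 to 1.53), Gpr143 (-0.57, -2.67 to 1.53) and Trpm1 (0.68, -0.83 to 2.18) also had intervals that include 0. Gpr143 was at -2.23 without responder 2 and at 0.12 without stable 2. No gene of the 10 had every responder below every stable tumour (0.288% of genes tested did). A level 2-fold higher in responders lay inside the interval of 8 genes (all but Tyrp1 and Slc24a5), and a level 2-fold lower inside that of 6 (Mlana, Tyr, Tyrp1, Slc45a2, Oca2 and Gpr143).

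**Figure D3:**
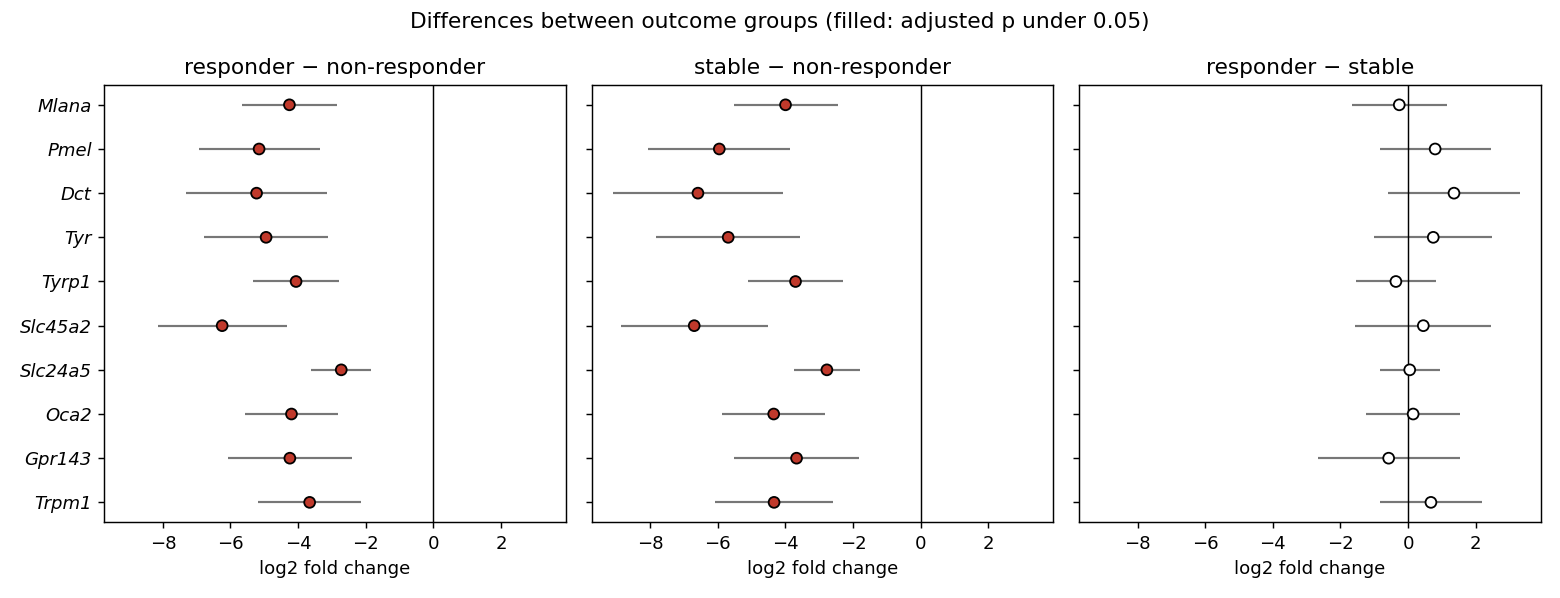
Log2 fold change of each gene with its 95% interval for responder against non-responder, stable against non-responder and responder against stable tumours; filled points passed an adjusted p of 0.05. All 10 genes lie left of 0 in the panels against non-responders, and all 10 intervals of responder against stable tumours include 0.

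Against the IgG2b controls, responders were lower for all 10 genes, where 28.9% of genes tested were called lower, and so were stable tumours, where 19.6% were. In responders the log2 difference ran from -7.88 (Slc45a2, 236-fold lower, SE 1.04) through -6.90 (Dct), -6.87 (Tyr), -6.67 (Pmel), -6.05 (Mlana), -5.41 (Tyrp1 and Oca2) and -5.17 (Trpm1) to -3.93 (Slc24a5, SE 0.48). In stable tumours it ran from -8.34 (Slc45a2) and -8.26 (Dct) to -3.99 (Slc24a5). The largest adjusted p was 2.43e-05 in responders and 4.87e-05 in stable tumours. With the log odds of the protein-coding share as covariate 9 of the 10 calls in responders held, and Gpr143 was at -5.69 (adjusted p = 0.0642). Without responder 6 Dct was at -7.60 and without responder 2 Gpr143 at -8.64 in responders, and without stable 2 Gpr143 was at -7.11 in stable tumours. Every tumour of both groups was below every control for all 10 genes, which held for 15.2% of genes tested in responders and for 17.2% in stable tumours.

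Non-responders were called lower than controls for 1 of the 10 genes, Gpr143, at -2.74 on the log2 scale (SE 0.84, adjusted p = 0.0304), where 3.29% of genes tested were called lower. Estimates of the other 9 were negative as well, from -1.92 for Tyr (adjusted p = 0.179) to -1.21 for Slc24a5 (adjusted p = 0.101), and 3 of the 10 genes had an unadjusted p under 0.05. Every non-responder was below every control for Tyr and Gpr143 (1.41% of genes tested). The single call was lost without control 1, 4 or 5 or without non-responder 4, 5 or 6, and without non-responder 3 it became 5 calls, with differences from -2.93 to -1.87 over the 10 genes. With the outcome groups weighted equally, the anti-CTLA-4 tumours as a whole were lower than controls for all 10 genes (23.4% of genes tested were called lower), with log2 differences from -5.95 (Slc45a2) to -3.04 (Slc24a5). These comparisons share the 5 control tumours.

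The non-responders spread far more widely than the controls. The SD of log2 CPM in non-responders was 1.42 for Tyrp1 at the least and 3.08 for Slc45a2 at the most, against 0.247 (Tyr) to 0.579 (Oca2) in controls. Wide spread was not particular to them. The SD was 0.565 (Slc24a5) to 3.08 (Dct) in responders and 0.408 (Slc24a5) to 1.93 (Tyrp1) in stable tumours, where several values rest on few counts. For all 10 genes the 8 highest tumours were the 5 controls and non-responders 1, 2 and 3, with non-responder 1 always the eighth. The next tumour in the order was non-responder 4 for all genes but Gpr143, where it was responder 2, and the step down to it was 4.92-fold in the median gene and 1.11-fold for Tyrp1. Non-responder 3 reached the lowest control for 8 genes and non-responder 2 for 4 genes. At the other end, non-responder 6 was at or below the highest responder for 7 genes, non-responder 5 for 4 and non-responder 4 for 1. No tumours were grouped by these levels, and no test was made of the split.

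Markers of other cells differed between the same tumours. The summed level of 5 T cell markers (Cd3d, Cd3e, Cd3g, Cd4, Cd8a) in non-responders 1 to 6 was 51.7, 27.8, 16.4, 92.5, 92.9 and 139.8 CPM, and Ptprc, the pan-leukocyte marker, stood at 219.6, 118, 84.1, 274, 258 and 445 CPM. The 5 macrophage markers summed to 698, 669, 513, 1479.9, 979.5 and 1494 CPM. The 3 cycling markers (Mki67, Top2a, Ccnb1) ran the other way, at 721, 930.3, 1017, 485, 600.7 and 458 CPM. By group, the T cell sum was 6.63 to 19.9 CPM in controls, 97.1 to 158 CPM in stable tumours and 64.5 to 173 CPM in responders, and no marker of the list was at 0 throughout a group. The 4 fibroblast markers summed to 1401 to 3369 CPM in controls, 2869 to 8181 in the 6 non-responders, 4369 to 8594 in stable tumours and 4473 to 10882 in responders. The 4 keratinocyte markers (0.494 to 1215 CPM), the 3 muscle markers (18.5 to 912 CPM) and the 4 Schwann cell markers (139 to 437 CPM) overlapped between all 4 groups. Against non-responders, Ptprc and 1 of the 5 T cell markers were called higher in responders, where 25.2% of all genes were. All 3 cycling, all 3 endothelial, 2 of 4 Schwann cell and 1 of 3 muscle markers were called lower, where 23.8% of all genes were. In stable tumours Ptprc, 1 of 5 T cell, 2 of 5 macrophage and 1 of 4 Schwann cell markers were called higher (7.08% of all genes), and 3 of 3 cycling and 2 of 3 endothelial markers lower (7.86%). The fibroblast and keratinocyte lists had no called gene in either comparison. The part of tumour composition in the pigment gene result was not tested.

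Sox10 was set beside the members as a gene of the pigment lineage, though Schwann cells express it too and their markers were found in every tumour. It was at 321 to 391 CPM in controls, 242 to 337 in the non-responders, 121 to 252 in stable tumours and 128 to 314 in responders, and the difference between responders and non-responders was -0.52 on the log2 scale (SE 0.16, adjusted p = 0.0129). The log2 ratio of Dct to Sox10 (with 0.1 CPM added to each) was 3.63 to 4.47 in controls, -1.95 to 4.27 in the non-responders, -5.36 to -1.89 in stable tumours and -10.2 to -0.10 in responders. The value of -10.2 is that of responder 3, with 3 Dct counts, and has no firm size. For Slc24a5 the same ratio was -1.86 to -0.48 in controls, -4.09 to -0.70 in the non-responders, -4.94 to -3.56 in stable tumours and -5.30 to -3.84 in responders. Reads that Slc24a5 shares with Myef2 are part of these low values to an unknown extent. Responder 3 had the highest Sox10 of the responders, 314 CPM, with 0 counts of Mlana, Tyr, Slc45a2 and Gpr143.

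The ratio of one member to another differed between tumours. The ratios below were picked after their values were seen and are given as description only. The RPKM ratio of Tyrp1 to Dct was 0.298 to 0.465 in controls, so Dct was the higher in all 5. In non-responders 1 to 6 it was 0.301, 0.392, 0.432, 2.15, 2.26 and 3.40. It was above 1 in all 6 stable tumours (1.01 to 7.45) and in 6 of 8 responders. The responders ran from 0.638 to 16.7 apart from responder 3, whose ratio of 141 rests on 3 Dct counts and has no firm size. The share of Dct in the summed RPKM of the 10 genes had a median of 48.5% in controls, 8.82% in stable tumours and 21.2% in responders. That of Tyrp1 was 17.9% in controls and 47.2% in stable tumours.

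The ratio of Slc24a5 to Slc45a2 was 0.561 to 0.955 in controls, 0.515, 0.607, 1.63, 5.54, 15.8 and 9.28 in non-responders 1 to 6, 13.8 to 349 in stable tumours and 10.2 to 129 in the 7 responders with a value. Slc45a2 had 4 or fewer counts in stable 3 and 6 and in responders 1 and 5, so their ratios have no firm size. The other 4 stable tumours were at 13.8 to 53.0 and the other 5 responders at 10.2 to 30.0. Slc24a5 RPKM exceeded what its counts imply by over 2-fold in 6 tumours (up to 3.30 times), and reads shared with Myef2 cannot be told apart. By contrast, the ratio of Dct to Tyr stayed in an overlapping range in every group: 11.6 to 16.8 in controls, 6.86 to 23.6 in the non-responders, 5.51 to 19.3 in stable tumours and 6.43 to 21.7 in 7 responders.

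**Figure D4:**
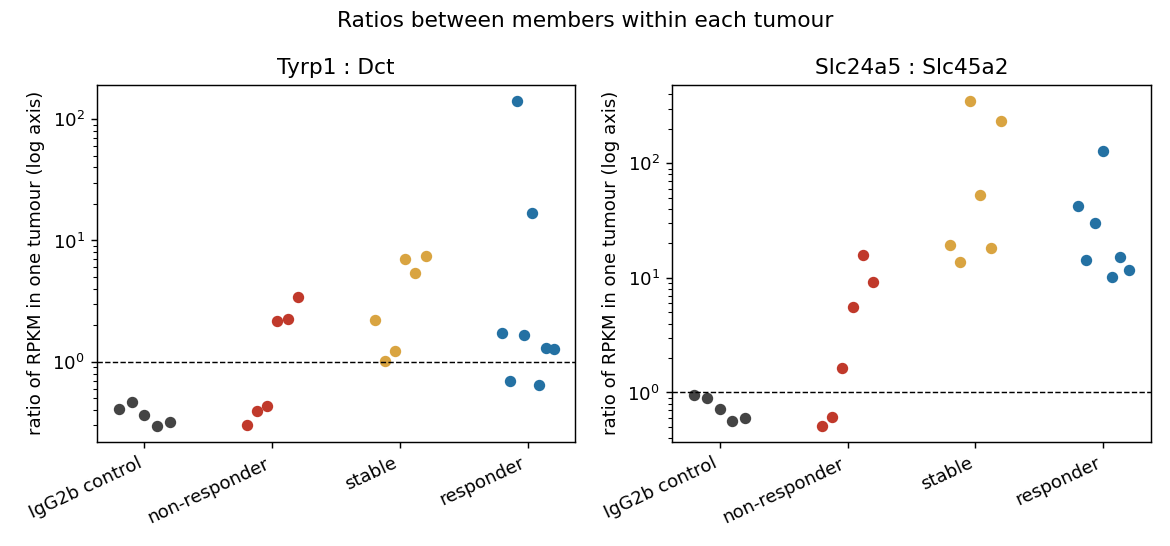
RPKM ratio of Tyrp1 to Dct and of Slc24a5 to Slc45a2 in each tumour by group, on a log axis; tumours listed at 0 for either gene are left out. The Tyrp1 to Dct ratio is under 1 in all 5 controls and above 1 in all 6 stable tumours, and the non-responders lie on both sides of 1.

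Genes that build and move melanosomes were followed as a list of 25 genes (BLOC, HPS and AP-3 subunits, Rab GTPases and others), all tested. Between responders and non-responders 6 were called higher, 6 lower and 13 neither, with a median log2 difference of -0.13, where 25.2% of all genes tested were called higher and 23.8% lower. Rab38, a GTPase that brings tyrosinase and TYRP1 cargo to melanosomes, was lowest at -3.57 (SE 0.54, adjusted p = 6.4e-05). Slc7a11, the cystine transporter linked to pheomelanin, was higher by 1.93 (SE 0.59, adjusted p = 0.0105), and Rab27a, which tethers melanosomes for transport, was lower at -1.89 (SE 0.40, adjusted p = 0.00079). Between stable tumours and non-responders 3 of the 25 were higher and 5 lower (7.08% and 7.86% of all genes), and between responders and stable tumours 4 and 4 (20.5% and 17.8%). Against controls the counts higher and lower were 5 and 10 in responders (36.1% and 28.9% of all genes), 5 and 9 in stable tumours (22.2% and 19.6%), 1 and 4 in non-responders (10.6% and 3.29%), and 5 and 10 over all anti-CTLA-4 tumours (27.7% and 23.4%).

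Another list held 15 regulators and signals of pigment cells, of which 14 were tested (Asip was too low). Between responders and non-responders 2 were called higher and 6 lower, with a median of -0.37, where 25.2% and 23.8% of all genes were. Mitf, the master regulator of the melanocyte lineage, was lower, at -1.39 on the log2 scale (SE 0.26, adjusted p = 0.000329), a smaller estimate than that of any of the 10 members (the difference between genes was not tested). Mc1r, the melanocortin receptor, was at -1.90 (SE 0.36, adjusted p = 0.000331), Ednrb, the endothelin receptor of melanoblasts, at -1.66 (SE 0.56, adjusted p = 0.0181) and Lef1, a Wnt effector, at 1.52 (SE 0.38, adjusted p = 0.00291). Mitf stood at 337 to 591 CPM in controls, 99.2 to 471 in the non-responders, 84.2 to 96.3 in stable tumours and 60.3 to 111 in responders. All 6 stable tumours were thus narrowly below all 6 non-responders, a pattern of 2.94% of genes tested, while responders overlapped the non-responders. Mitf remained above 60 CPM everywhere. The counts higher and lower were 1 and 5 for stable tumours against non-responders (7.08% and 7.86% of all genes) and 1 and 2 for responders against stable tumours (20.5% and 17.8%). Against controls they were 3 and 7 in responders (36.1% and 28.9%), 2 and 6 in stable tumours (22.2% and 19.6%), 1 and 1 in non-responders (10.6% and 3.29%), and 2 and 7 over all anti-CTLA-4 tumours (27.7% and 23.4%).

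**Figure D5:**
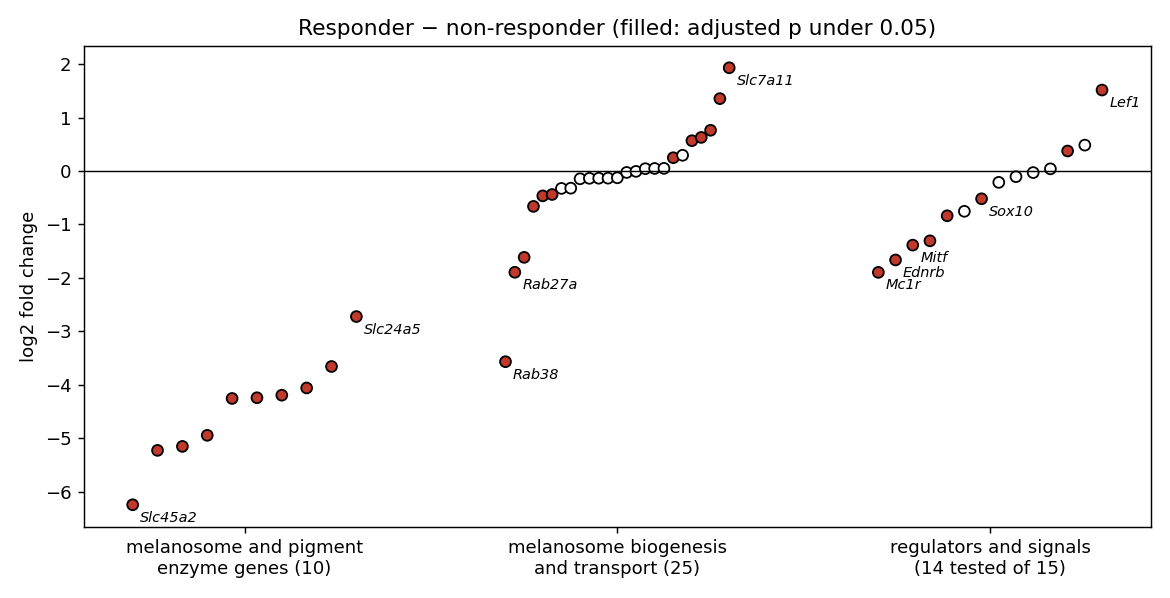
Log2 fold change between responders and non-responders for the 10 members, 25 genes of melanosome biogenesis and transport and 14 regulators and signals, 1 point per gene, filled where the adjusted p was under 0.05. All 10 members lie between -6.25 and -2.72, and the other lists lie on both sides of 0 with Rab38 lowest at -3.57.

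Outside the members, the genes most like them were found by the mean absolute difference between a gene's standardised log2 CPM and the mean of the 10 members over the 25 tumours, among 13592 protein-coding genes of at least 1 CPM. The 5 nearest were Tspan10 (0.146), Rab38 (0.158), Klhl23 (0.177), Gsta1 (0.177) and Ptgds (0.188), where the median gene was at 1.10. The members themselves ran from 0.0950 (Pmel) to 0.273 (Gpr143), each being part of the mean it was set against. Tspan10, a tetraspanin, held 54.7 to 122 CPM in controls, 1.64 to 97.2 in the non-responders, 0.192 to 1.24 in stable tumours and 0 to 3.59 in responders. Ptgds, a prostaglandin D synthase, held 211 to 391.8, 2.04 to 201, 0.111 to 3.95 and 0 to 4.99 CPM in the same groups. Since they were chosen for this pattern, their levels are a description. Rab38 is also one of the 25 biogenesis and transport genes, and its test above is no support for this likeness.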

How the data were processed

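The authors deposited an estimated count per gene for 25 tumours, made from their reads with the tools below, and a table of RPKM values, which scale reads to gene length and library size. The submitters' processing notes name bcl2fastq 2.17, Trimmomatic, STAR 2.5.1, RSEM 1.2.22 and mm10, without role or order. Per the labels' protocols the kit was TruSeq Stranded Total RNA, while the molecule is labelled polyA RNA, which could change how much non-coding RNA is counted. In the deposited counts 5.64% of values were not whole, and all were rounded. Genes were named from GENCODE mouse release 21.

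Groups came from the labels. edgeR 4.0.16 (R 4.3.3; TMM, filterByExpr, robust quasi-likelihood F test, two-sided) was fitted over all 25 tumours on 18031 genes, with Benjamini-Hochberg adjustment and a threshold of 0.05. CPM used TMM library sizes. SE is the log2 fold change over the root of F, and 95% intervals are normal. Folds from limma are on the log2(RPKM + pseudocount) scale. Alternatives were DESeq2 1.42.0, limma 3.58.1 on RPKM, filters, scalings, covariates and leaving out each tumour. The members and lists were chosen with earlier results of these data known. The named genes were all 10 members, the 3 largest changes between responders and non-responders among called genes of each list, Mitf, Sox10 and Mc1r, and the 5 genes most like the members.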

Additional observations from a re-analysis of the deposited data

Results flagged for a closer look

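Single tumours stood far from the rest of their group in 5 of 40 combinations of gene and group. Chance gives about 1 in 20 for a single combination. The genes varied together across tumours and several of the 5 came from stable 3, so the 40 are not independent. Whether 5 is more than chance gives cannot be told from them. Stable 3 was far below the other stable tumours for Pmel (1.95 CPM), Tyrp1 (3.79 CPM) and Oca2 (0.223 CPM). Responder 3 stood apart for Mlana, at 0 CPM, where the log2 value is set by the prior count. Control 1 was far above the other controls for Tyrp1, at 3795 CPM.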

How the results depend on the processing

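Of 2587 values of single genes under the alternatives, 2506 kept their direction and their side of the threshold, 42 lost the call, 17 gained one and 22 changed sign. All sign changes were between responders and stable tumours, where none of the 10 genes was called. All 10 calls for responders against non-responders became 4 once the protein-coding share entered as covariate, where 894 of 18031 genes were called lower. They became 0 with its log odds as a covariate, a setting chosen after seeing the data, where 289 of 18031 genes were called lower. Another setting so chosen, only libraries of at least 80%, leaves responder 5 alone, assumed to vary like the other groups. Its calls cannot be weighed, and its log2 differences were -9.68 to -3.06. The 10 calls for stable against non-responding tumours became 5 when a 2-fold difference was required, where 24 of 18031 genes were called lower. The 1 call for non-responders against controls became 0 with DESeq2, without the low-count filter, with only the groups compared and at 2-fold, and 9 or 6 with limma on RPKM with a pseudocount of 1 or 0.1. Leaving out 1 tumour gave 0 to 5 calls there, 10 in the other comparisons with calls, and 0 between responders and stable tumours.

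Between responders and stable tumours the sign changed for Mlana (0.0071) and Gpr143 (0.19) with that covariate, for Mlana (0.0962) and Gpr143 (0.57) with its log odds, and for Gpr143 (0.0045) with limma at a pseudocount of 1. With only libraries of at least 80% it changed for Pmel (-2.58), Dct (-3.06), Tyr (-3.66), Slc45a2 (-2.53), Slc24a5 (-0.26), Oca2 (-2.26) and Trpm1 (-2.58). Leaving out 1 tumour gave -0.15 to 0.21 for Slc24a5, -0.21 to 0.34 for Oca2, -0.54 to 0.13 for Mlana and -2.23 to 0.12 for Gpr143. The cause was not tested.

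With only the groups compared, Gpr143 fell under the filter in the comparisons among treated groups. No paired analysis was possible because replicates carry no numbers in the labels that are shared between groups. Low counts limit what can be said of Gpr143 in stable and responding tumours. Mlana, Tyr and Slc45a2 were at 0 counts in responder 3, whose library held 20.1 M counts, and the cause was not tested.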
